A study of Mus musculus with 12 samples.

Results

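Broad FoxP3 peaks were the subject here: intervals of 1000 bp or more that were called as a single FoxP3 ChIP-seq peak in replicate 1 of either genotype. Chromosomes 1 to 19 were kept, and such peaks were joined where they overlapped by at least 1 bp. This gave 284 regions, out of 24082 regions in the joined replicate 1 lists and 24175 in all 6 lists joined. The members were thus chosen by peak length in the replicate 1 lists, so those lengths are described and not tested. The cells were freshly isolated, untreated CD4(+)hCD2(+) Treg cells from lymph nodes and spleen of C57BL/6J mice. The mice were FoxP3WT:hCD2, called WT here, or FoxP3A384T:hCD2, called A384T here, in which FoxP3 carries the substitution A384T. All of them carried the hCD2 marker by which the cells were sorted magnetically. Each genotype had 3 ChIP libraries made with a polyclonal antibody against FoxP3, and the labels give no age or sex and do not say how many animals went into a library. Separate animals are not stated either, so the p-values speak only to how far these libraries varied, possibly for technical reasons alone. Marker genes of the sorted cells could not be looked up in peak lists, so the cell type stands as labelled.

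FoxP3 is the forkhead transcription factor that defines regulatory T cells, the T cells that restrain immune responses, and A384T lies in its DNA-binding forkhead domain. In ChIP-seq of such a factor a single bound site usually gives a peak close to the length of the sequenced DNA fragments. Wider peaks are found where bound sites lie close together, where binding spreads, or where signal runs high over a stretch of DNA. All positions are 1-based mm9 coordinates, and regions are given by position alone, since gene positions of mm9 were not used here.

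The 2 replicate 1 libraries differed from the other 4 in ways that touch peak width. They had 51 bp tags against 49 bp, an estimated fragment length of 149 to 150 bp against 123 to 135 bp, and 17734 to 20218 peaks against 1670 to 6478. They also had fewer unique ChIP tags, 17520951 to 18255500 against 21752899 to 25386770. Redundant ChIP tags made up 39% in WT replicate 1 and 30% in A384T replicate 1, against 18 to 21% in the other 4. The median peak was 262 bp in WT replicate 1 and 265 bp in A384T replicate 1, and it was 180 to 213 bp in the other lists. Breadth was rare in both replicate 1 lists: 218 of 20218 peaks in WT (1.08%) and 119 of 17734 in A384T (0.671%) reached 1000 bp. In the joined set 53 regions were broad in both lists, 165 in WT replicate 1 only and 66 in A384T replicate 1 only.

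The broad regions were almost all peaks in both replicate 1 lists, and what differed was how far the peak reached. Of the 284, 283 had a peak in both, and the exception lay at chr19:25206300-25207408, with 1109 bp in WT replicate 1 and no peak in A384T replicate 1. The regions were from 1000 to 4380 bp long with a median of 1163 bp; 163 were under 1200 bp and only 4 reached 2000 bp. The widest peak in a region had a median of 1104 bp in WT replicate 1 and 874 bp in A384T replicate 1 over the 283. It was wider in WT in 191 of them, with a median difference of 331 bp. More of the members came from the WT list, so this is no test of genotype. In the 53 regions broad in both lists the median difference was 9 bp, with 27 wider in WT and 26 wider in A384T. Among 13044 other regions with a peak in both lists the median difference was also 9 bp, and 53.7% were wider in WT.

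A broad peak in one replicate 1 list was often a row of separate peaks in the other. Of the 165 regions broad in WT only, A384T replicate 1 had 2 or more peaks in 79, including 17 with 3 or more, and its widest peak there had a median of 550.5 bp. Of the 66 regions broad in A384T only, WT replicate 1 had 2 or more peaks in 41, with a median widest peak of 587.5 bp. The strongest summits nevertheless lay close together. In the 283 regions with a peak in both, the 2 summits were a median of 25 bp apart, 222 pairs lay within 100 bp and 24 lay more than 500 bp apart. The lists thus differed in width at regions whose highest point mostly lay at the same place.

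**Figure D1:**
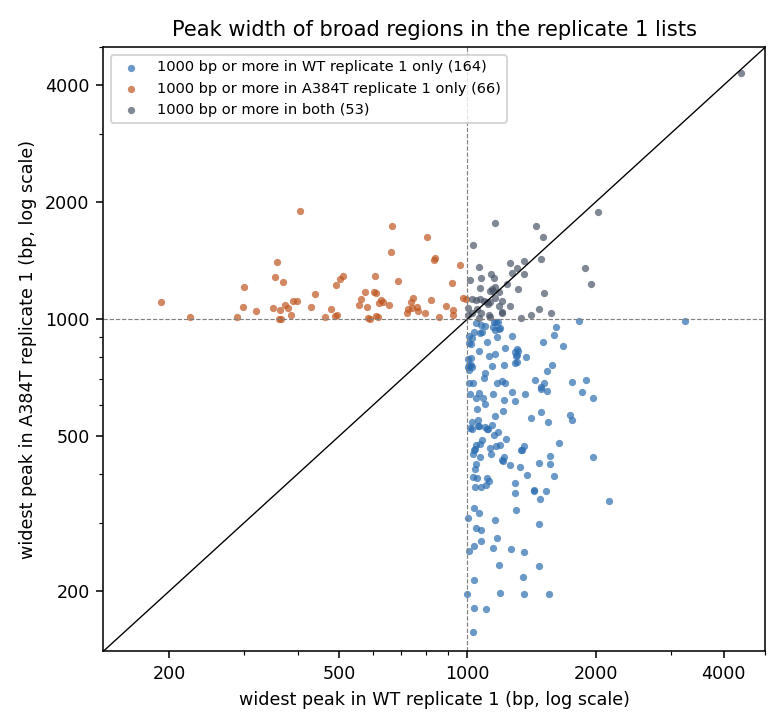
Each point is 1 of the 283 broad regions with a peak in both replicate 1 lists, placed by its widest peak in WT replicate 1 (x, bp, log scale) and in A384T replicate 1 (y, bp, log scale); the solid line marks equal width and the dashed lines 1000 bp. The 164 blue and 66 orange points fall short of 1000 bp in the other list by construction, and the 53 grey points lie around the line, with a median difference of 9 bp.

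Broad peaks were stronger than narrower peaks, and their summits lay off centre more often. Their median fold enrichment over control, the authors' own value per peak, was 24.3 in WT replicate 1 against 11.05 for peaks under 500 bp, and 20.3 against 11.4 in A384T replicate 1. Their median percentile of -log10 q within the list was 92.7 in WT and 91.05 in A384T. The summit lay more than 25% of the peak length from the centre in 34.9% of broad peaks in WT and 44.5% in A384T, against 6.65% and 5.81% of peaks under 500 bp. Peaks of at least 500 but under 1000 bp stood between. Their median fold was 18.8 in WT and 16.6 in A384T, and their median percentile 85.4 and 81.7. Off centre by this limit were 24.7% of them in WT and 26.8% in A384T. Strength and length came from the same peak calls, so these values describe the members and support nothing.

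The 10 widest regions show how the same interval was called in 6 libraries. The widest was chr17:39979967-39984346. It was 1 peak of 4380 bp in WT replicate 1, of 4288 bp in A384T replicate 1 and of 4253 bp in WT replicate 3, and 2 peaks in A384T replicate 3, the wider of 3473 bp. A384T replicate 2 had 6 peaks there, the widest of 636 bp, and WT replicate 2 had none. At the strongest peak of each of the 5 lists its fold enrichment was only 1.75 to 2.25, over a control background of 103 to 171 tags. The median background of broad peaks was 4.23 tags in WT and 5.54 in A384T replicate 1. This region and its neighbour on chromosome 17 from 39984405 on were the only members with a fold under 5 in a replicate 1 list, and without such peaks 282 regions remained.

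Second was chr7:82754152-82757396, a single peak of 3245 bp in WT replicate 1. A384T replicate 1 had 3 peaks there, WT replicate 2 had 2, WT replicate 3 and A384T replicate 2 had 4 each, and A384T replicate 3 had none. The separate peaks stood at matching places. Counted from the start of the region, summits lay at 388, 395 and 481 bp in A384T replicate 1, WT replicate 3 and A384T replicate 2. A further set lay at 1257 to 1375 bp in 4 lists, another at 2475 to 2509 bp in the same 4 lists, and a last pair at 2899 bp in WT replicate 3 and 2983 bp in A384T replicate 2. The long WT replicate 1 peak, with its summit at 418 bp, thus spanned 4 positions that at least 2 other libraries called separately.

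chr1:140199553-140201577 was broad in 3 libraries of both genotypes. Its widest peak measured 2025 bp in WT replicate 1, 1886 bp in A384T replicate 1 and 1421 bp in A384T replicate 2. In WT replicate 3 the interval held 3 peaks of at most 512 bp, and single peaks of 142 bp in WT replicate 2 and 286 bp in A384T replicate 3 were found. chr3:115503070-115505037, at 1968 bp in WT replicate 1, had a peak in all 6 lists and 10 separate peaks over the 4 other lists. A summit lay 861 to 934 bp from its start in all 6 lists, and a further one 1554 to 1578 bp from its start in 4 of them. chr10:13702076-13703835 had 11 separate peaks over the 4 other lists, the most of any member. There a summit lay between 756 and 786 bp from the start in every list. Of the other widest regions, chr18:75526154-75528102 was broad in both replicate 1 lists, at 1949 and 1234 bp, as was chr10:13686428-13688315, at 1888 and 1352 bp. Both had a peak in all 6 lists, and the strongest summits of the 4 other libraries spanned 40 bp in the first and 42 bp in the second. chr1:152270143-152271653 held 9 separate peaks, 3 in each of WT replicate 3, A384T replicate 2 and A384T replicate 3, and none in WT replicate 2.

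**Figure D2:**
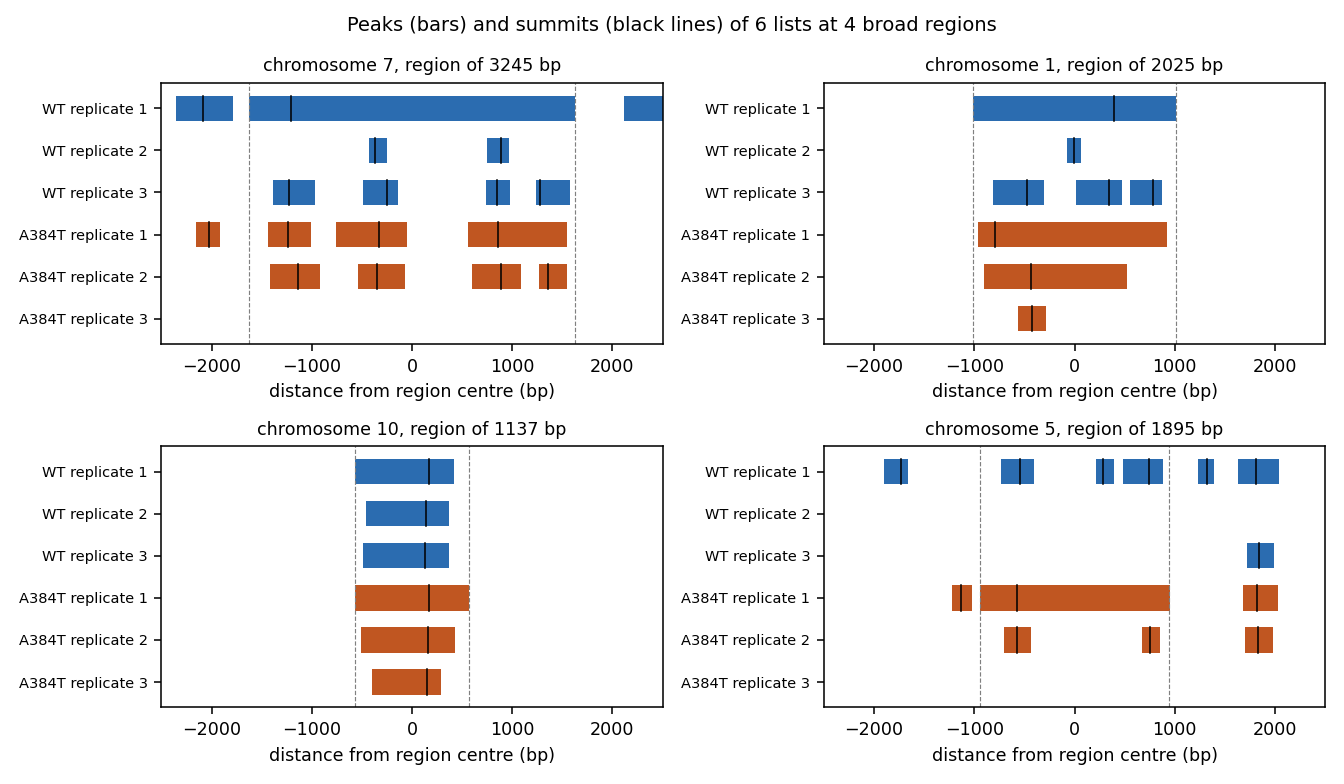
Bars are called peaks and black lines their summits in the 6 lists at 4 regions, by distance from the region's centre in bp; blue is WT, orange is A384T, and dashed lines mark the ends of the region. At the upper left, the 3245 bp peak of WT replicate 1 corresponds to rows of 2 to 4 separate peaks in 4 of the other lists; at the lower left, 1 peak of 695 to 1137 bp stands at the same place in all 6.

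Some members were a single peak in all 6 lists. By summed width in the 4 other lists the first region was chr10:18781717-18782853. One peak was called there in every list. In WT it was 980, 828 and 859 bp long (replicates 1, 2 and 3), and in A384T 1137, 934 and 695 bp. Next was chr9:32735749-32737220, which had 2 peaks, of 695 and 206 bp, in WT replicate 3 and 1 in each other list. It was followed by chr1:163696569-163697755, chr5:63249177-63250287 and chr9:32717762-32719058, each a single peak in all 6 lists. The region on chromosome 5 had its widest peak in the 6 lists between 676 and 1111 bp, with folds of 14.4 to 82.5. Among the 94 regions with a peak in all 4 other lists, the strongest summits of the 4 libraries lay closest at chr14:54846825-54848043, where they spanned 5 bp. In these 94 they lay farthest apart at chr1:152272305-152274201, over 1512 bp.

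Regions with a broad replicate 1 peak were found in the other 4 libraries more often than the remaining replicate 1 regions. WT replicate 2 had a peak in 132 of the 284 (46.5%, exact Clopper-Pearson 95% interval 40.6 to 52.5%), against 6.75% of all 24082 replicate 1 regions. WT replicate 3 had one in 196 (69.0%, 63.3 to 74.3%), against 14.8%. A384T replicate 2 had one in 237 (83.5%, 78.6 to 87.6%), against 25.7%, and A384T replicate 3 in 139 (48.9%, 43.0 to 54.9%), against 8.17%. The intervals cover counting error only, and regions in runs are not independent. Set against the 23798 regions without a broad peak, the share was higher by 40.2, 54.8, 58.4 and 41.3 percentage points in these 4 libraries, 48.7 ± 9.31 on average (SD, n = 4). All 4 differences were positive (two-sided exact sign-flip permutation test, p = 0.13, the smallest that 4 libraries allow). Against regions with a widest peak of at least 500 but under 1000 bp alone the mean difference was 22.4 points. It was 37.1 points with the lists cut to equal length. A peak in both replicate 1 lists was held by 283 of the 284 broad regions, against 13044 of the 23798 others. Among those of at least 500 but under 1000 bp, 2773 of 3027 held one in both. The part of this in the differences was not tested. Between genotypes the share averaged 57.7 ± 15.9% for WT against 66.2 ± 24.4% for A384T (SD, n = 2 each; two-sided exact permutation test, p = 0.67), a difference within the spread of libraries. It was 8.45 points, but -2.82 when WT replicate 2 was left out, -8.80 when A384T replicate 2 was, and -1.59 with lists of equal length.

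The share found was higher at each step of width in the replicate 1 lists. Averaged over the 4 libraries it was 0.985% for regions under 200 bp, 5.87% from 200 bp to under 300 bp, 26.8% from 400 bp to under 500 bp and 48.6% from 700 bp to under 1000 bp. It was 57.5% from 1000 bp to under 1200 bp, 65.9% from 1200 bp to under 1500 bp and 75% in the 38 regions of 1500 bp or more. A region counted as found at an overlap of 1 bp, so wider regions offered more length to overlap. The part of this in the shares was not tested. Strength moved with width, since 165 of the 284 were among the top 10% when all 24082 replicate 1 regions were ranked by their highest percentile of -log10 q. Within these 79.5% of broad and 66.1% of other regions were found on average, and between the percentiles 80 and 90 the shares were 52.4% and 30.8%. In the top 2% the shares were 91.5% and 87.9%. The difference thus narrowed to 3.68 points among the strongest regions, and no test was made within these classes.

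**Figure D3:**
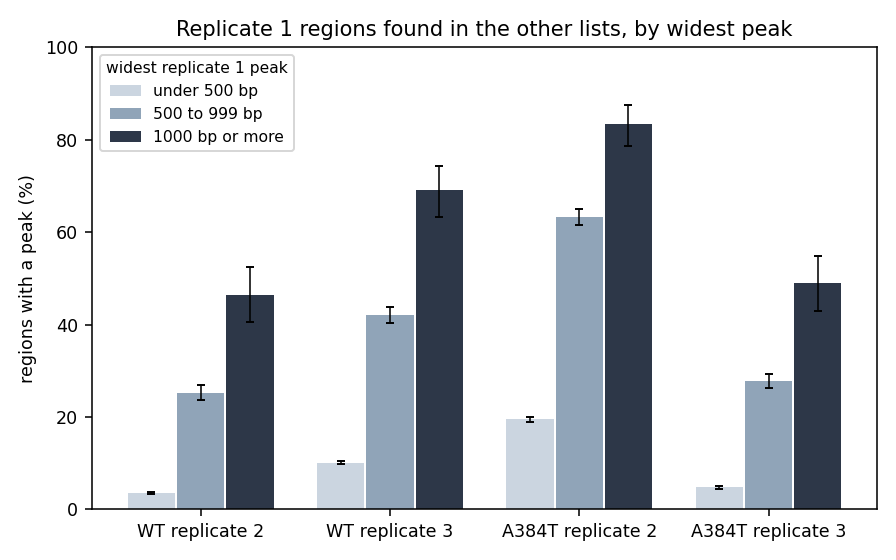
Bars give the share of replicate 1 regions with a peak in each of the 4 other lists (y, %), by the widest replicate 1 peak of the region; error bars are exact 95% binomial intervals. In each list the dark bars of the 284 broad regions, 46.5 to 83.5%, stand above those of the 3027 regions of at least 500 but under 1000 bp and of the 20771 regions under 500 bp.

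All 4 other lists had a peak in 94 of the 284 broad regions, against 3.96% of all replicate 1 regions, and none of the 4 had one in 36, against 71.2%. The 5 widest of the 36 lay at chr2:79133719-79135276 (1558 bp), chr2:72816704-72818121 (1418 bp), chr17:50770465-50771824 (1360 bp), chr11:51671183-51672494 (1312 bp) and chr12:45369529-45370835 (1307 bp). The first had a fold of 16.2 in WT replicate 1 and shrank to a peak of 196 bp in A384T replicate 1. The one on chromosome 11 was broad in both, at 1071 and 1201 bp, with folds of 11.05 and 13.3. So regions broad in both replicate 1 lists could lack a call in every other library, and 2 of the 53 did.

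In the other libraries the peaks at these regions were wide for their lists but seldom broad. The widest peak per region had a median of 242 bp in WT replicate 2, 354 bp in WT replicate 3, 381 bp in A384T replicate 2 and 229 bp in A384T replicate 3. These widths stood at the median percentiles 73.4, 87.5, 88.2 and 74.0 of all peaks in their own lists, and covered a median of 20.5, 27.7, 30.7 and 18.1% of the region. A region with several peaks gave its widest, while each list was ranked over single peaks. By -log10 q the strongest peaks there stood at the median percentiles 58.1, 68.3, 74.7 and 58.2. The part of strength in these widths was not tested. Only 9 regions in WT replicate 3, 9 in A384T replicate 2, 3 in A384T replicate 3 and 0 in WT replicate 2 again held a peak of 1000 bp or more. Genotypes did not differ beyond the spread of libraries: the medians averaged 298 ± 79.2 bp for WT against 305 ± 107 bp for A384T (SD, n = 2 each; two-sided exact permutation test, p = 1). With 2 libraries a side such a test cannot go below 0.33. The difference was 7 bp, but -49 bp when WT replicate 2 was left out and -69 bp when A384T replicate 2 was.

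Region by region, widths that separated the genotypes were counted by percentile within each list. Among the 94 with a peak in all 4 lists, the width percentile was higher in both WT libraries than in both A384T libraries in 4 regions, or 4.26%, against 5.66% of the 954 regions of the series with a peak in all 4. It was higher in both A384T libraries in 18, or 19.1%, against 25.1%. The difference between these shares was not tested.

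Where a region was found, it was usually a single peak, and more often several in the longer lists. Per region with a peak, WT replicate 2 had 1.19 separate peaks, WT replicate 3 had 1.38, A384T replicate 2 had 1.51 and A384T replicate 3 had 1.23. A region held 2 or more in 18.2, 32.1, 40.9 and 22.3% of cases, and at most 6. WT averaged 1.28 ± 0.13 against 1.37 ± 0.20 for A384T (SD, n = 2 each; two-sided exact permutation test, p = 0.67). The difference of 0.0890 turned to -0.00506 when WT replicate 2 was left out, to -0.0533 when A384T replicate 2 was, and to -0.0338 with lists of equal length.

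Summits lay close to those of replicate 1. The nearest summit lay a median of 30.5 bp from the strongest replicate 1 summit in WT replicate 2, 36.0 bp in WT replicate 3 and 30.0 bp in each of A384T replicates 2 and 3. Within 100 bp were 80.3, 77.6, 79.7 and 86.3% of the regions found in these lists. WT averaged 33.3 ± 3.89 bp against 30.0 ± 0 bp for A384T (SD, n = 2 each; two-sided exact permutation test, p = 0.33, which is the lowest reachable). That difference of -3.25 bp changed sign to 2.25 bp when the members came from WT replicate 1 alone. In the 94 regions found in all 4 lists the strongest summits of the 4 libraries spanned a median of 60.5 bp, with 60 regions within 100 bp and 10 over 500 bp.

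Several members held more than 1 position that recurred. Summits of the 4 other lists that followed each other by at most 100 bp were taken as 1 position, recurrent if 2 or more libraries contributed. The 284 regions held 464 positions, of which 258 were recurrent and 212 had summits of both genotypes. One recurrent position was found in 138 regions, 2 in 50 and 3 or more in 6, and 90 had none, including the 36 without a peak. In the 56 regions with at least 2, the outermost recurrent positions were a median of 615 bp apart. Such regions made up 17 of the 53 broad in both lists, 36 of the 165 broad in WT only and 3 of the 66 broad in A384T only. A recurrent position needs a peak in at least 2 of the 4 lists, so these counts depend on presence. No list had a peak in 2 of the 53, 15 of the 165 and 19 of the 66. Only 1 list had one in a further 5, 15 and 20. Recurrent positions were not counted in other replicate 1 regions.

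Regions broad in A384T replicate 1 only were found less often than those broad in WT replicate 1 only, by a wider margin in the WT libraries. Of the 165 regions broad in WT only, 100 (60.6%) had a peak in WT replicate 2 and 137 (83.0%) in WT replicate 3. A384T replicate 2 had one in 140 (84.8%) and A384T replicate 3 in 83 (50.3%). Of the 66 regions broad in A384T only, the same lists had a peak in 9 (13.6%), 16 (24.2%), 46 (69.7%) and 22 (33.3%). The share was higher in the first class in all 4 libraries, by 47.0 and 58.8 points in WT replicates 2 and 3 and by 15.2 and 17.0 points in A384T replicates 2 and 3. The difference between genotypes was 36.8 points, from 52.9 ± 8.36 in WT to 16.1 ± 1.29 in A384T (SD, n = 2 each; two-sided exact permutation test, p = 0.33, which is the lowest reachable), and the pairs did not overlap. It was 27.2 points with lists of equal length and 35.0 points with 1 region kept per run, and from 30.9 to 42.7 points when each of the 4 libraries was left out. Strength differed between the classes as well: in the list where they were broad, the median percentile of -log10 q was 92.9 for the first class and 85.5 for the second. The part of strength in the difference was not tested.

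**Figure D4:**
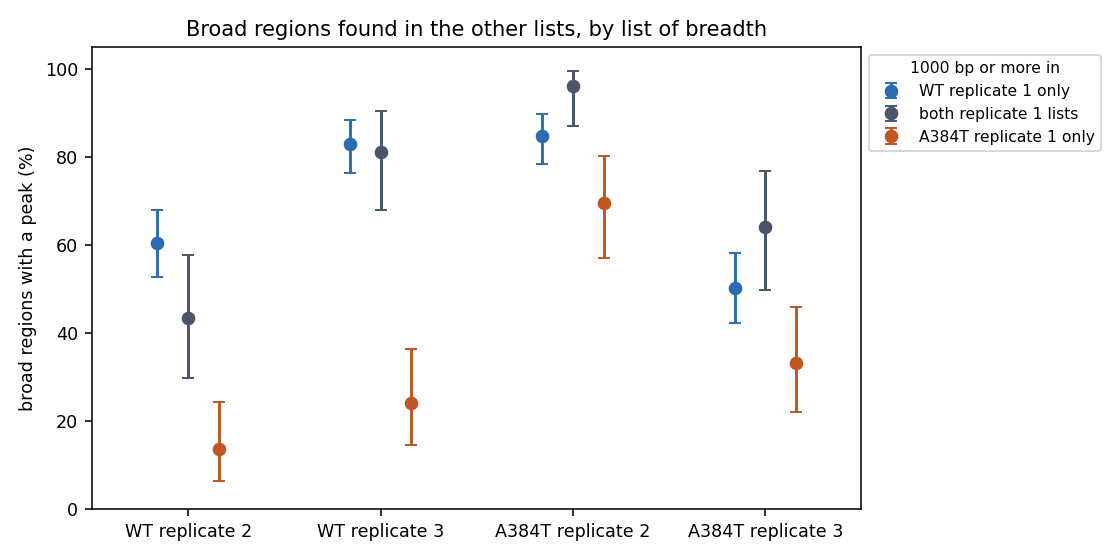
Points give the share of broad regions with a peak in each of the 4 other lists (y, %), by the replicate 1 list in which the region reached 1000 bp; bars are exact 95% binomial intervals. Regions broad in A384T replicate 1 only (orange) drop to 13.6 and 24.2% in the WT libraries and stand at 69.7 and 33.3% in the A384T libraries.

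A finer division by the width ratio of the 2 replicate 1 lists ran the same way. In the 33 regions at least 2 times as wide in A384T replicate 1, the other WT libraries found 4.55% on average and the other A384T libraries 47.0%. In the 98 at least 2 times as wide in WT replicate 1, the averages were 69.4 and 63.3%. The gap between genotypes, WT minus A384T, went from -42.4 to 6.12 points over the members. Over 13044 other regions it was -13.6 points at the first limit, reached -16.4 points between and was -1.81 points at the last. A384T replicate 2 had the longest of the 4 lists.

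Few members were found in both other libraries of one genotype and neither of the other. For A384T there were 17 of 284 (5.99%), against 1.94% of all replicate 1 regions, and for WT 1 (0.352%), against 0.116%. Of the 17, 12 were broad in A384T only, 3 in both and 2 in WT only. The widest of them was chr3:51079882-51081617. It measured 1736 bp in A384T replicate 1, 286 bp in A384T replicate 2 and 153 bp in A384T replicate 3, and 666 bp in WT replicate 1. The 1 WT region, named after its values were seen, was chr10:12642160-12643333. Its widest peaks were 1174, 185 and 314 bp long in the 3 WT libraries and 900 bp in A384T replicate 1.

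The largest width differences between the replicate 1 lists in favour of WT followed the chromosome 7 region above. They were 1814 bp at chr17:73511750-73513903, 1528 bp at chr1:152259036-152261005, 1362 bp at chr2:79133719-79135276 and 1341 bp at the chromosome 3 region above. In favour of A384T the first was chr5:96590435-96592329, at 1895 bp in A384T and 405 bp in WT. WT replicate 1 had 3 peaks there, A384T replicate 2 had 2, and the other lists had none. Both A384T lists and WT replicate 1 had a summit 369 to 405 bp from its start. It was followed by the chromosome 3 region from 51079882 and by chr3:51143631-51145036, which was 1406 bp in A384T and 358 bp in WT. The last 2 of the 5 were chr19:12869262-12870543 and chr15:79376490-79377598, and neither had a peak in the other 4 lists.

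Part of the broad regions came in runs. With gaps of at most 100 kb, 115 of the 284 (40.5%) had another broad region near, in 42 groups, 13 of them with 3 or more. Runs held 99 of the 165 regions broad in WT only (60%), 10 of the 53 broad in both (18.9%) and 6 of the 66 broad in A384T only (9.09%). No such share was counted for other sets of replicate 1 regions. Whether these shares exceed those of an equal number of other regions was therefore not tested. The classes differ in size, and the difference between them was not tested either. Keeping the widest region of each run left 211, of which 101 were broad in WT only and 62 in A384T only, and the median width difference was 120 bp in place of 331 bp. Peaks of any width were also denser around broad regions. Within 50 kb they had a median of 8 other replicate 1 regions, against 5 for regions of at least 500 but under 1000 bp and 4 for those under 500 bp.

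The largest run lay at chr1:152259036-152294528, with 10 broad regions over 35.5 kb, all broad in WT replicate 1 and 1 also in A384T replicate 1. Called peaks covered 75.4% of it in WT replicate 1, 59.4% in WT replicate 3 and 1.91% in WT replicate 2. In A384T they covered 47.1, 34.0 and 17.0% (replicates 1, 2 and 3). WT replicate 2 had 4 peaks there, against 29 to 52 in the other lists. WT replicate 3 again had 4 peaks of 1000 bp or more there. Next came chr19:25171147-25258205, with 8 regions, all broad in WT replicate 1 only. Coverage was 47.8% in WT replicate 1 and 14.7% in A384T replicate 1, and 0 to 3.20% in the other 4 lists. A run of 4 at chr4:123058580-123170861 was alike, at 29.2% and 7.71% in these lists and 0 to 5.79% in the others.

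In these 3 runs the control background at the peaks was at or near the lowest value of its list. Its median was 2.35 to 2.41 tags in WT replicate 1, where the lowest value of the list was 2.28 and the median 3.89. Of the 165 regions broad in WT only, 25 (15.2%) had a background of at most 2.5 tags in WT replicate 1, and 0 of the other 119 did. These 25 were 8.80% of the 284 members. Peaks under 1000 bp in that list had such a background more often, in 18.7% of cases. The part of this background in the breadth was not tested.

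Other runs had peaks in every list. chr9:32717762-32737220 held 5 broad regions, of which 4 had a peak in all 4 other lists and the fifth in 3. In WT peaks covered 42.9, 13.7 and 19.1% of it (replicates 1, 2 and 3), and in A384T 22.8, 20.6 and 9.77%. The 5 regions at chr7:82716516-82847803 and the 4 at chr19:11558371-11592145 were each found in 3 or 4 of the other lists. Of the replicate 1 lists, only WT replicate 1 was broad at these 9. A384T replicate 2 also had a broad peak in the chromosome 19 run, of 1009 bp at chr19:11558323-11559331. Over all WT replicate 1 peaks in the run, of any width, the median background was 2.81 tags on chromosome 7 and 3.92 tags on chromosome 19.

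**Figure D5:**
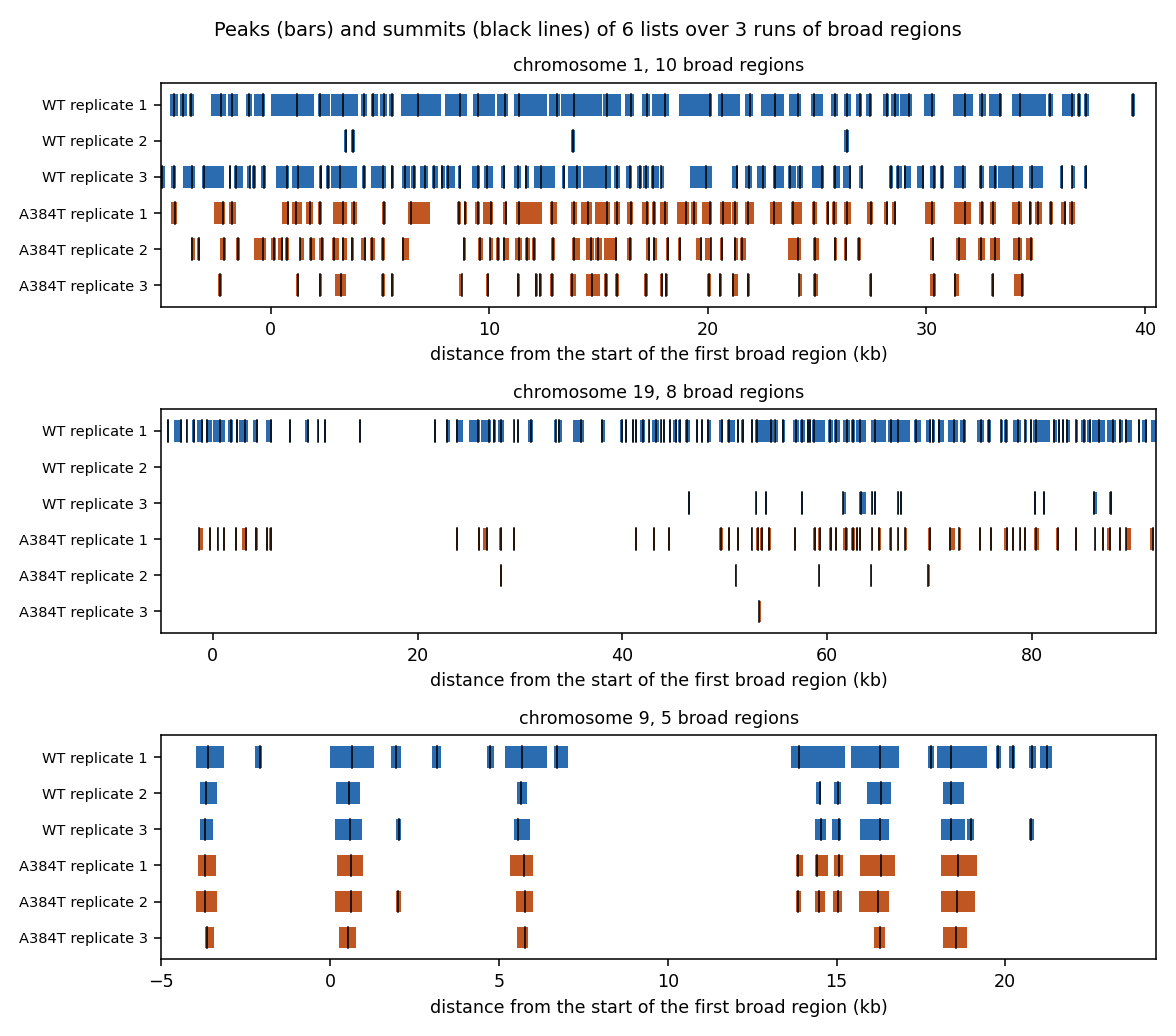
Bars are called peaks and black lines their summits in the 6 lists over 3 runs of broad regions, by distance in kb from the start of the first broad region; blue is WT and orange is A384T. The chromosome 1 run holds many peaks in all lists but WT replicate 2, covering from 17.0% (A384T replicate 3) to 75.4% (WT replicate 1) of it. Peaks of the chromosome 19 run stand mainly in the replicate 1 lists, and the 5 regions on chromosome 9 stand at the same places in nearly all lists.

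By chromosome the members made up from 0.329% of replicate 1 regions on chromosome 11 (6 regions) to 2.14% on chromosome 19 (20 regions), with 40 on chromosome 1. Lengths ran on across the threshold without a gap. In WT replicate 1 the 3 peaks nearest below it were 1, 3 and 4 bp short and were found in 0, 4 and 4 of the other lists. The 3 nearest above were 0, 3 and 3 bp over it and were found in 3, 2 and 3. In A384T replicate 1 peaks 4, 7 and 9 bp short were found in 4, 1 and 4 other lists, and peaks 3, 3 and 4 bp over in 0, 2 and 0.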

How the data were processed

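FoxP3 was immunoprecipitated from cells fixed for 30 min in 1% formaldehyde, with 4 µg of antibody, per the labels' protocols. Bowtie2, MACS2 and mm9 are named in the submitters' processing notes. Peaks were called per library with MACS 2.1.0.20140616 against 1 control library each, with 6 control codes, at a q-value cutoff of 1e-10 with broad calling off and 1 tag kept per position, per the file headers. The deposited lists give length and summit in bp, pileup (a signal value in tags), -log10 p-value and -log10 q-value, and fold enrichment (a ratio to the control background). Control background here is pileup divided by fold. Lists share no scale, so presence, width and position were compared. Absence means only that no peak passed the authors' cutoff.

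Groups and replicate numbers came from sample titles, and the 6 inputs were not analysed here. Genotypes were compared over replicates 2 and 3 with exact permutation tests. Peak width per region is the widest peak. Same-numbered libraries deviated together from their genotype means in the -log10 q ranks of 953 regions found in all 6 lists, with correlations of 0.437, 0.129 and 0.379 for numbers 1, 2 and 3, so the numbers were taken as pairs in an alternative with a replicate block. Named regions are the 10 widest, the 5 of largest summed width in the other lists, the 5 of largest width difference each way, the 5 with most separate peaks, the 5 widest found in no other list, and those of least and most summit spread. The members, lists and tests were chosen with earlier results of these data known. Counting was checked on 5000 simulated regions, 200 of them broad, and all 20 quantities were recovered. Planned motif and gene counts were not analysed here. Scripts ran in Python 3.11.15 with scipy 1.17.1, pandas 2.3.3, numpy 2.4.6 and matplotlib 3.10.9.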

Additional observations from a re-analysis of the deposited data

Results flagged for a closer look

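Peaks of 1000 bp or more outside chromosomes 1 to 19, which are used here only in the alternative that adds chromosomes X and Y, exceeded the 3 counts that a count of 0 allows in 2 lists. WT replicate 1 had 23 on chromosome Y, between 2691211 and 2766001, the longest of 7418 bp, longer than any member. A384T replicate 2 had 10 on chromosome Y between 2706406 and 2753161, the longest of 1755 bp, although none of its autosomal peaks passed 1421 bp. The other 4 lists had 0 broad peaks on chromosome Y, and no list had one on chromosome X.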

How the results depend on the processing

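Of 109 alternatives to 8 results, 89 kept the direction, or the size where there was no test, 8 moved the value and 12 reversed its sign. Some of the 89 were fixed in advance. The replicate block left every value as it was, and an overlap of 50% of the shorter interval could not change the count of 284. The exact permutation tests cannot go below p = 0.13 at best, so no call could be lost. The presence difference of 8.45 points between genotypes (A384T minus WT; exact permutation p = 0.67) became -1.59 with lists of equal length and ranged from -8.80 to 26.1 over the libraries left out. The difference in separate peaks became -0.0338 with equal lengths and -0.0465 with chromosomes X and Y, and ranged from -0.0533 to 0.231. The summit difference became 0.5 bp at 1500 bp and ranged from -9.25 to 2.25 bp. The width difference in the other lists ranged from -69 to 83 bp. Over the libraries left out, the excess of broad over other regions ranged from 33.3 to 54.3 points and the class difference from 30.9 to 42.7 points. Over all alternatives they kept their sign, from 22.4 to 64.8 and from 27.2 to 52.3 points. The 64.8 points set members above the 90th percentile of -log10 q against other regions of any strength. Within the top 10% of replicate 1 regions by strength, the excess of broad over other regions was 13.4 points. Between the replicate 1 lists the width difference was 171 bp at 800 bp, 826.5 bp at 1500 bp, 120 bp with 1 region per run, and -299 or 535 bp with members from A384T or WT replicate 1 alone. The count of 284 was 693 at 800 bp, 38 at 1500 bp, 171 with a peak above the 90th percentile of -log10 q among the peaks of its replicate 1 list, and 119 or 218 from A384T or WT replicate 1 alone. With the replicate block the exact p-values were 1 for the presence, separate-peak and width differences and 0.5, the smallest it allows, for the summit difference of -3.25 bp and the class difference of 36.8 points, so it changed no call. The cause of these changes was not tested. The runs and percentile alternatives were chosen after seeing the data. Without a replicate 1 library the class comparison could not be made. The lists ran from 1670 to 6478 peaks in the 4 other libraries, and absence from a list says only that no peak was called. List length did not follow depth, since the list of 1670 peaks had the most unique ChIP tags, 25386770.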

Other observations

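The 4 other lists held 26 autosomal peaks of 1000 bp or more, of which 5 lay outside the 284 regions. In WT replicate 3 these were chr1:55061241-55062311 (1071 bp) and chr1:152255883-152256901 (1019 bp), chr17:75010577-75011964 (1388 bp) and chr7:125352382-125353689 (1308 bp). The last had no peak in either replicate 1 list, with a fold of 15.0 over a background of 2.47 tags in WT replicate 3. In A384T replicate 2 the peak was chr7:52104206-52105437 (1232 bp, fold 27.7). Unlike these, chr12:114662479-114663492 lay inside a member, one that was broad in both replicate 1 lists. It was broad in WT replicate 3 (1014 bp, fold 5.56), and nearly the same interval was broad in A384T replicate 2 (1025 bp, fold 6.39). The background there was 17.5 tags in WT replicate 3 and 15.8 tags in A384T replicate 2. These peaks were chosen after their values were seen.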
